A study of Homo sapiens with 6 samples.

Results

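Clade B serpins are the family of mostly intracellular serine protease inhibitors whose genes carry symbols starting with SERPINB, several of which were first described in squamous epithelium. The 10 members described here are *SERPINB1*, *SERPINB2*, *SERPINB3*, *SERPINB4*, *SERPINB5*, *SERPINB6*, *SERPINB7*, *SERPINB8*, *SERPINB9* and *SERPINB13*, taken by current symbol from the 58884 genes counted in each library. They were chosen with the read counts of this same comparison in view, so their differences between the groups are given as a description, without a test. RNA was sequenced from HSC-4 cells, an established human oral squamous cell carcinoma line, after 24 h with 50 µM DAPT (3 libraries) or without it (3 control libraries). DAPT inhibits γ-secretase, the protease that cuts Notch receptors at the membrane. No group carries an engineered allele or transgene, and both groups come from one tumour line. The study's methods state that the control cells received DMSO, whereas the deposit names growth medium, so an effect of the vehicle cannot be told apart from that of DAPT if the controls had none. Nothing in the sources used here says that the 3 libraries of a group came from separate cultures, so the p-values given for other genes measure the spread between these samples, which may be technical.

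A serpin presents an exposed reactive loop as bait. The protease cuts the loop, the serpin changes shape, and the protease is trapped in a covalent complex, so that each inhibitor molecule is used once. Clade B serpins lack a classical signal peptide and act mainly inside the cell, where they protect it from its own lysosomal cathepsins and from the proteases of leukocytes. In stratified squamous epithelium such as the oral lining, several of them are made above the basal layer as the cells mature, and *SERPINB3* and *SERPINB4* are known clinically as the squamous cell carcinoma antigens. *SERPINB1*, *SERPINB6*, *SERPINB8* and *SERPINB9* are widely expressed outside squamous epithelium.

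*SERPINB3* (chr18:63655197-63661893, minus strand, GRCh38) and *SERPINB4* (chr18:63637259-63644298, minus strand) are near-identical copies, and their sequences decide how far the reads tell them apart. Their coding sequences are 1170 bases each and 95.2% identical, with 56 differing bases and no gap. The stretch of 75 coding bases with the most differences, 12, lies in exon 8, at coding bases 949 to 1023, and covers chr18:63655807-63655881 in *SERPINB3* and chr18:63637869-63637943 in *SERPINB4*. Both are shown 5′ to 3′ on the coding strand, with the differing bases in capitals.
SERPINB3: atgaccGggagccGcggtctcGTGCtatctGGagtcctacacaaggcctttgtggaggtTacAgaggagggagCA
SERPINB4: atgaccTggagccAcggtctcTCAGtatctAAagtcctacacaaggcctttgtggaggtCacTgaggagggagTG
A read from this stretch belongs to 1 of the genes only, but the longest stretch without any difference spans 129 coding bases. The reads were 75 bases long, and the median window of that length held 2 differences. Of the 1158 windows of 75 bases within *SERPINB3* exons, 117 (10.1%) were also present in *SERPINB4* exons, and of the 1421 windows within *SERPINB4* exons, 122 (8.59%) were present elsewhere in the genome, 117 of them in *SERPINB3*. Reads from such windows map to several places and were not counted, so both levels are underestimates, and reads with a mismatch could be assigned to the wrong copy. No such window was found elsewhere for *SERPINB2*, *SERPINB5*, *SERPINB7*, *SERPINB8* or *SERPINB13*, and the share was 0.204% for *SERPINB1*, 0.19% for *SERPINB6* and 5.02% for *SERPINB9*. Reads across exon junctions are not covered by these windows.

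Total counts lay between 12276313 and 16317672 per library, and 3 counts, taken as the smallest signal, correspond to 0.184 to 0.244 CPM, meaning counts after every library is scaled to the same size, for counting error only. The epithelial markers were abundant, with a summed level of 4210 to 4340 CPM in the control and 2700 to 2850 CPM in the DAPT libraries, a sum carried by *KRT5* (2700 ± 61.9 and 1320 ± 43.4 CPM). Of the 6, *KRT5*, *KRT14*, *KRT17* and *TP63* were lower and *CDH1* and *EPCAM* higher (0.27 each on the log2 scale), and *KRT14*, a keratin of basal cells, was at only 3.17 ± 0.319 CPM in the controls and 0.443 ± 0.387 CPM with DAPT. Control replicate 1 stood apart. All 5 fibroblast markers (*COL1A1*, *COL1A2*, *COL3A1*, *PDGFRB* and *DCN*) were highest there, and they summed to 546 CPM, against 55.2 CPM in the lowest control library and 48.8 to 53.5 CPM with DAPT. *COL1A2*, a collagen gene, was at 215 CPM there and at 2.02 and 0.663 CPM in the other two controls. Leukocyte markers summed to 10.5 to 12.8 CPM in the controls and 8.92 to 10.4 CPM with DAPT, with *CD3E* and *MS4A1* at 0. That sum was carried by *CD14* alone (11.7 ± 1.19 and 9.43 ± 0.781 CPM). The means of *PTPRC* were 0 and 0.0744 CPM, and those of *CD68* 0.121 and 0 CPM. Endothelial markers summed to 1.24 to 1.68 and 2.41 to 2.92 CPM, with *CLDN5* at 0. Of the endothelial genes *CDH5* was higher with DAPT (0.328 ± 0.171 and 1.81 ± 0.485 CPM), while *VWF* was at 1.05 ± 0.242 and 0.792 ± 0.221 CPM. The part of these other markers in the results was not tested, and values without control replicate 1 are given beside those that rest on it. In these bulk libraries, fewer cells of a type and less RNA per cell cannot be told apart.

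Most clade B serpins were lower with DAPT, by widely different amounts. *SERPINB4* and *SERPINB3* were 6.64-fold and 5.54-fold lower, *SERPINB13* 2.22-fold, *SERPINB1* 1.94-fold, *SERPINB7* 1.88-fold, *SERPINB5* 1.58-fold and *SERPINB6* 1.34-fold lower. *SERPINB8* differed by 1.13-fold with overlapping groups, and *SERPINB2* and *SERPINB9* had too few reads to pass the filter on low counts. Among the 8 members that passed, 7 were lower when adjusted p-values (edgeR quasi-likelihood, Benjamini-Hochberg over all 15001 tested genes) were held to 0.05, and the log2 fold changes of all 8 were negative. The same test found 18% of all tested genes lower, 17.2% higher and 35.2% changed in either direction. At least a 2-fold decrease was found in 3 members and in 1.77% of all tested genes. In 7 of the 8 every DAPT library lay below every control library, as in 22.7% of all tested genes. Since the members were chosen from this contrast, nothing is read from these counts. The 8 members had at least 10 counts in every DAPT library, so none passed the filter through its control level alone. Their median log2 fold change was -0.93, beside 0.01 over all tested genes, and without control replicate 1 it was -0.92, with 8 of 8 lower, beside 19.1% of all genes tested without that library.

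**Figure D1:**
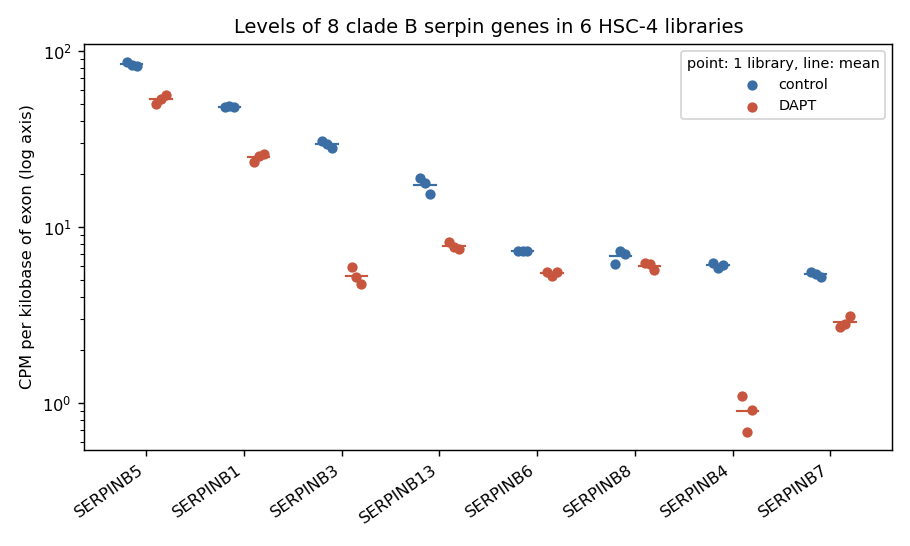
Level of the 8 clade B serpin genes that passed the filter in the 3 control (blue) and 3 DAPT (red) libraries of HSC-4 cells, in CPM per kilobase of exon on a log axis; points are libraries and lines are group means. *SERPINB5* is the highest gene in both groups, *SERPINB3* and *SERPINB4* are the furthest apart between groups, and the points of *SERPINB8* overlap.

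*SERPINB3*, an inhibitor of papain-like cysteine proteases such as cathepsins L, K and S, was at 52.4, 50.1 and 47.7 CPM in control replicates 1, 2 and 3 and at 10.1, 8.85 and 8.07 CPM in DAPT replicates 1, 2 and 3. The 3 DAPT values sat close together, far below the lowest control. The means were 50.1 ± 2.33 CPM (SD, n = 3) and 8.99 ± 1.01 CPM (SD, n = 3), a log2 fold change of -2.47 (standard error 0.09). *SERPINB4*, which acts on chymotrypsin-like serine proteases such as cathepsin G and mast cell chymase, was at 12.5, 11.8 and 12.3 CPM in the controls and at 2.21, 1.39 and 1.84 CPM with DAPT. Its groups did not overlap either, and the DAPT values rest on 34, 19 and 24 reads, so that their coefficient of variation was 22.6%, against 3.11% in the controls. The means of *SERPINB4* were 12.2 ± 0.379 and 1.81 ± 0.41 CPM (SD, n = 3), and the log2 fold change was -2.73 (standard error 0.16). Of all tested genes, 0.0933% had a log2 fold change below that of *SERPINB4*, and 0.133% one below that of *SERPINB3*. Since the members were chosen from this contrast, nothing is read from these ranks. The ratio of *SERPINB3* reads to *SERPINB4* reads was 4.18, 4.26 and 3.89 in the controls and 4.56, 6.37 and 4.38 with DAPT. DAPT replicate 2, the library with the fewest *SERPINB4* reads, had the highest ratio. With the reads of both genes summed, which removes any wrong assignment between them, the log2 fold change was -2.52. Without control replicate 1 it was -2.43 (standard error 0.09) for *SERPINB3* and -2.71 (standard error 0.17) for *SERPINB4*.

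*SERPINB13*, or headpin, which inhibits cathepsins L and K and is expressed in differentiating squamous epithelium, came next in the size of the difference. It was at 85.9, 80.2 and 69.6 CPM in the controls and at 37.4, 34.8 and 34.0 CPM with DAPT. The controls were spread more widely (78.5 ± 8.27 CPM) than the DAPT libraries (35.4 ± 1.77 CPM), without overlap. The log2 fold change of *SERPINB13* was -1.15 (standard error 0.07), and -1.08 (standard error 0.07) without control replicate 1, its highest library. *SERPINB7*, or megsin, whose loss of function causes a palmoplantar keratoderma, was at 14.6, 14.3 and 13.7 CPM in the controls and at 7.15, 7.39 and 8.22 CPM with DAPT. Each DAPT value was well below every control. The means of *SERPINB7* were 14.2 ± 0.465 and 7.58 ± 0.565 CPM, a log2 fold change of -0.91 (standard error 0.11).

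*SERPINB5*, or maspin, has the serpin fold but does not inhibit proteases in the classical way, and is known as a tumour suppressor in mammary epithelium. It was at 321, 310 and 308 CPM in the controls and at 187, 200 and 208 CPM with DAPT. The groups lay far apart relative to the spread within them, at 313 ± 6.91 and 198 ± 10.7 CPM. The log2 fold change of *SERPINB5* was -0.66 (standard error 0.05), so that 63.4% of the control level remained, against 18% for *SERPINB3* and 14.9% for *SERPINB4*.

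*SERPINB1*, the inhibitor of neutrophil elastase, proteinase 3 and cathepsin G, was the steadiest member in the controls, at 146, 147 and 146 CPM, and was at 70.8, 77.2 and 79.4 CPM with DAPT. The control libraries differed by less than the DAPT libraries did, and no DAPT value came near them. The means were 147 ± 0.6 and 75.8 ± 4.45 CPM, and the log2 fold change was -0.95 (standard error 0.05). *SERPINB6*, an inhibitor of cathepsin G, lies in the same gene cluster and was at 96.0, 96.9 and 95.8 CPM in the controls and at 73.2, 69.3 and 72.8 CPM with DAPT. Here too the groups were tight and separate, but the difference was smaller, and the log2 fold change was -0.42 (standard error 0.05). The ratio of *SERPINB6* to *SERPINB1* reads was accordingly 0.657, 0.658 and 0.655 in the controls and 1.03, 0.898 and 0.918 with DAPT.

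*SERPINB8*, which inhibits the proprotein convertase furin, was the one tested member whose groups overlapped. It was at 36.1, 42.6 and 41.0 CPM in the controls and at 36.4, 36.1 and 33.3 CPM with DAPT. Control replicate 1 lay among the DAPT libraries, and the other two controls lay above all of them. The log2 fold change of *SERPINB8* was -0.17 (standard error 0.08), and -0.24 (standard error 0.07) without control replicate 1, the library that also held the fibroblast transcripts. Some *SERPINB8* exons (6.31% of their length) overlap *HMSD* on the same strand, where reads were not counted.

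**Figure D2:**
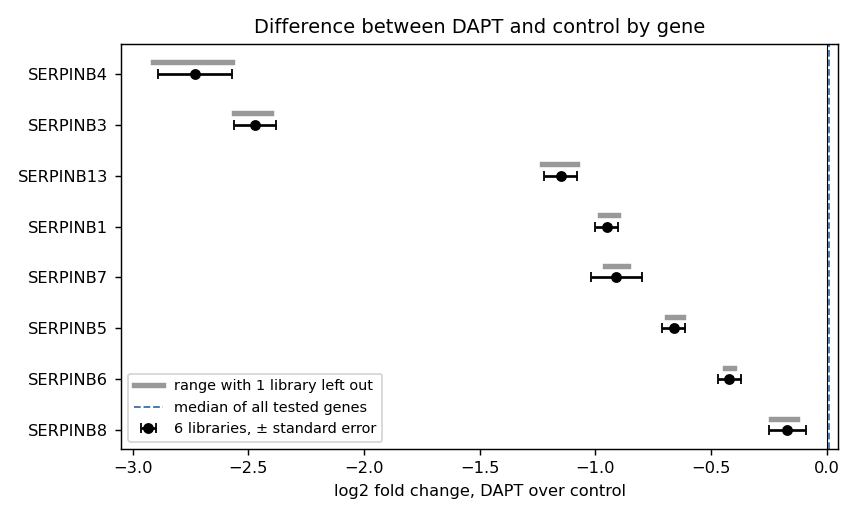
Log2 fold change (DAPT over control) of the 8 tested clade B serpin genes with its standard error (black), the range obtained when each of the 6 libraries was left out in turn (grey bars) and the median of all tested genes (dashed line). The grey bars of *SERPINB3* (-2.56 to -2.40) and *SERPINB4* (-2.91 to -2.57) lie far to the left of the others, and that of *SERPINB8* runs from -0.24 to -0.13.

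*SERPINB2*, the plasminogen activator inhibitor type 2, had 10, 7 and 6 reads in the controls and 0, 1 and 2 reads with DAPT. Every DAPT library was below every control, at a level near the smallest signal. Summed over the libraries, 23 and 3 reads gave a ratio of DAPT to control of 0.134, with an exact conditional 95% interval of 0.0258 to 0.445 that covers counting error only. About 20% of its exonic length is shared with *SERPINB10* on the same strand, and reads there were not counted. *SERPINB9*, the inhibitor of granzyme B, had 2, 0 and 0 reads in the controls and 1, 0 and 1 with DAPT, so neither its presence nor a difference was detectable at this depth. The 3 clade B genes outside the members were as scarce. *SERPINB10* had 13, 12 and 7 reads in the controls and 0, 1 and 0 with DAPT, for a ratio of 0.0322 (interval 0.000791 to 0.193). *SERPINB11* had 4, 1 and 7 and then 0, 1 and 1 reads, and *SERPINB12* had none in any library, which allows up to 0.0702 CPM over the controls and 0.0723 CPM over the DAPT libraries. All 3 were below the filter and were not tested. Exons of *SERPINB11* and *SERPINB3* overlap on opposite strands, over 16.8% and 36.3% of their lengths. Whether reads of *SERPINB3* entered the few of *SERPINB11* was not tested.

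Levels of different genes were compared per kilobase of exon, which also depends on the annotated length. In the controls *SERPINB5* was the highest, at 83.6 ± 1.85 CPM per kilobase, followed by *SERPINB1* (48.1 ± 0.197), *SERPINB3* (29.3 ± 1.37) and *SERPINB13* (17.3 ± 1.82), and no library of one of these 4 overlapped with the next. *SERPINB6* (7.29 ± 0.0448), *SERPINB8* (6.80 ± 0.576) and *SERPINB4* (6.05 ± 0.188) came next. Their order is not settled, since the values of *SERPINB8* overlapped with those of both its neighbours. *SERPINB7* (5.38 ± 0.176) was below them, and *SERPINB2* (0.198 ± 0.0256) and *SERPINB9* (0.01 ± 0.0174) were near zero. With DAPT, *SERPINB3* moved from rank 3 to rank 6, at 5.27 ± 0.591 CPM per kilobase, below *SERPINB13* (7.81 ± 0.391), *SERPINB8* (6.01 ± 0.298) and *SERPINB6* (5.44 ± 0.162), although its libraries overlapped with those of the last 2, so that this order is not settled either. *SERPINB4* moved from rank 7 to rank 8, at 0.901 ± 0.204. *SERPINB6* has 13201 annotated exonic bases, the most of all members, and took rank 3 in the controls when reads were not divided by length.

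Together the 10 members amounted to 209, 204 and 199 CPM per kilobase in the controls and 103, 107 and 109 with DAPT. The summed level was about the same within each group, at 204 ± 4.75 and 106 ± 3.15, and the DAPT mean was 52.1% of the control mean, or 52.7% without control replicate 1. The make-up also differed. *SERPINB3* gave 14.7%, 14.4% and 14.0% of the sum in the controls and 5.73%, 4.86% and 4.33% with DAPT, and *SERPINB4* gave 2.97 ± 0.0981% and 0.851 ± 0.209%. The largest share was that of *SERPINB5*, at 41.1%, 40.6% and 41.3% in the controls and 48.6%, 50.2% and 51.0% with DAPT. The share of *SERPINB1* was 23.6 ± 0.561% and 23.4 ± 0.717%, with overlapping groups, and that of *SERPINB7* was 2.63 ± 0.0286% and 2.70 ± 0.13%. *SERPINB8* had a share of 3.34 ± 0.336% and then 5.67 ± 0.431%, while its own level differed little and the sum was lower. In single reads, *SERPINB5* outnumbered *SERPINB3* by 6.12, 6.19 and 6.45 to 1 in the controls and by 18.6, 22.6 and 25.8 to 1 with DAPT.

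**Figure D3:**
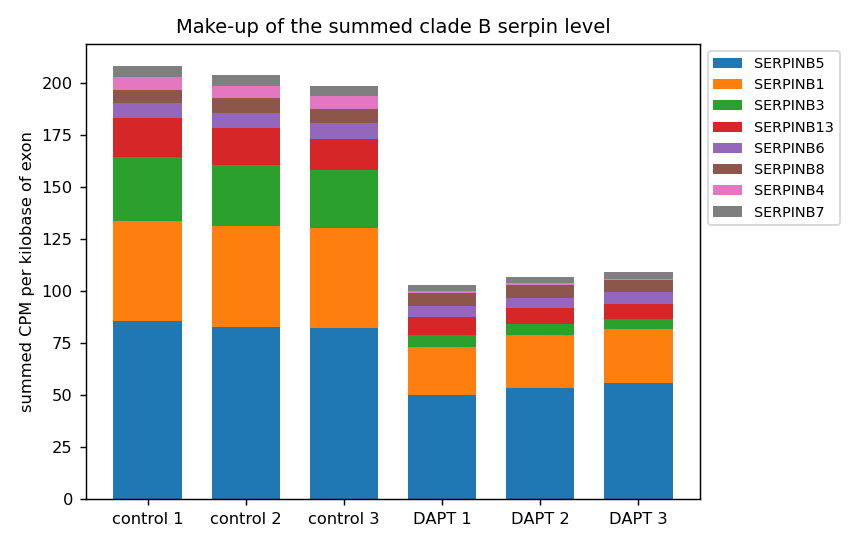
Summed level of the clade B serpin genes in each library, in CPM per kilobase of exon, stacked by gene; *SERPINB2* and *SERPINB9* are too low to draw. The 3 control bars reach 199 to 209 and the 3 DAPT bars 103 to 109, and the *SERPINB3* segment (green) has a mean of 29.3 in the controls and 5.27 with DAPT.

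The members lie in 2 clusters. On chromosome 6, *SERPINB1* (chr6:2832332-2841959), *SERPINB9* (chr6:2887270-2903309) and *SERPINB6* (chr6:2948159-2972165) sit within 140 kb on the minus strand. On chromosome 18, the other 7 members and *SERPINB10*, *SERPINB11* and *SERPINB12* span 543 kb, from *SERPINB5* (chr18:63476958-63505085) through *SERPINB13* (chr18:63586989-63604639), *SERPINB4*, *SERPINB3*, *SERPINB7* (chr18:63752935-63805376) and *SERPINB2* (chr18:63871692-63903888) to *SERPINB8* (chr18:63969925-64019779). All coordinates are those of the count table on GRCh38. Among the tested members the largest differences were in the middle of the chromosome 18 cluster and the smallest at its *SERPINB8* end, next to the scarce *SERPINB2* and *SERPINB10*. In the chromosome 6 cluster both tested members were lower, *SERPINB1* more than *SERPINB6*.

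The calls among protein-coding genes around the 2 clusters are given beside those over all tested genes, of which 18% were lower and 17.2% higher. Within 500 kb of the chromosome 6 cluster, 8 of 9 neighbours were tested, of which 1 was lower, 2 were higher and 5 did not pass, with a median log2 fold change of -0.12. *RIPK1*, a kinase of cell death signalling, was higher by 0.40 on the log2 scale (standard error 0.06, Benjamini-Hochberg adjusted p = 3.59e-05 by the edgeR quasi-likelihood fit), and so was *MYLK4* (0.80, standard error 0.25, adjusted p = 0.0154 from the same edgeR test), a call lost in DESeq2 and without control replicate 3 or DAPT replicate 3. The transporter gene *SLC22A23* was lower (-0.24, standard error 0.07, adjusted p = 0.00763 in edgeR), a call lost without DAPT replicate 2. Within and around the chromosome 18 cluster, 5 of 8 other protein-coding genes were tested, of which 2 were lower and 3 did not pass, with a median of -0.15. The lower one inside the cluster was *HMSD*, a serpin-like gene next to *SERPINB8*, at 6.48 ± 0.91 CPM in the controls and 3.61 ± 0.93 CPM with DAPT (log2 fold change -0.84, standard error 0.18, adjusted p = 0.000827 in edgeR). With so few neighbours, nothing is read from these counts or from a contrast between the clusters. No test of a difference between the members and their neighbours was made.

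**Figure D4:**
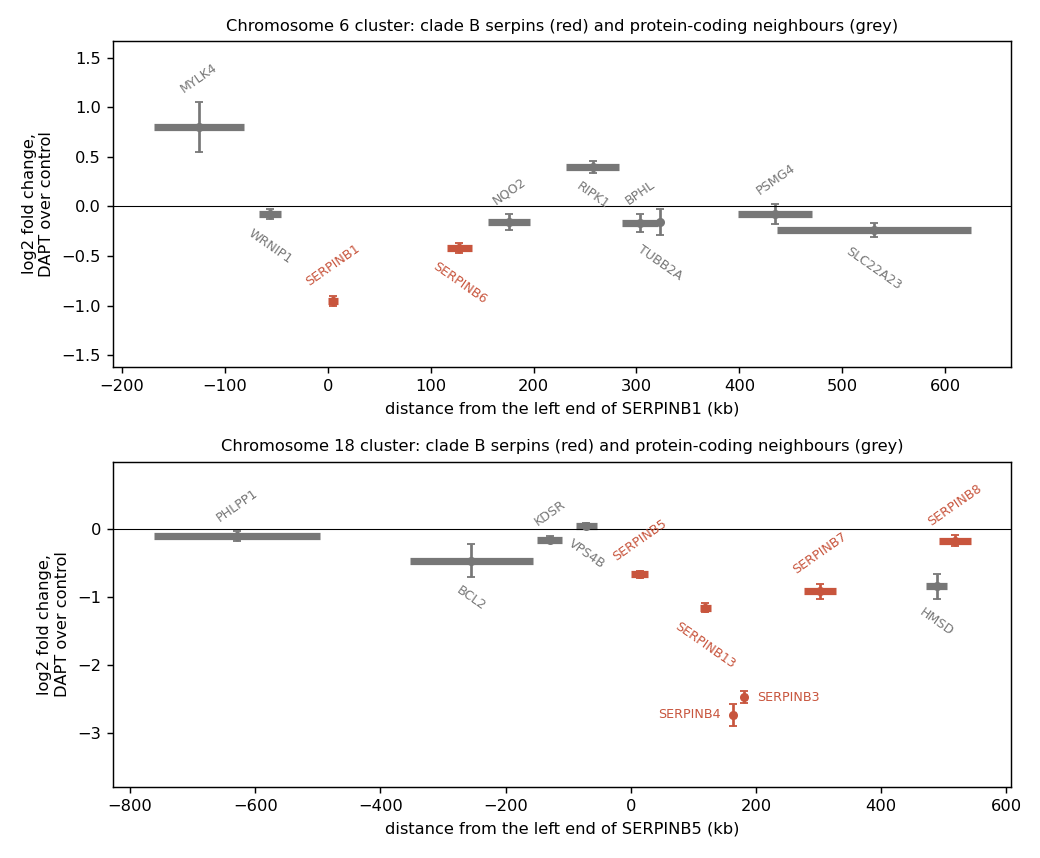
Log2 fold change (DAPT over control) with its standard error for tested clade B serpin genes (red) and other tested protein-coding genes within 500 kb (grey), by distance in kb along chromosome 6 (top) and chromosome 18 (bottom); bars show the extent of each gene. *SERPINB4* and *SERPINB3* are the lowest points (-2.73 and -2.47), and most grey genes lie near 0.

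The likeness of *SERPINB3* and *SERPINB4* extends to their promoters, taken as the 250 bases before and 50 bases from the RefSeq start site on (GRCh38.p14). All 10 members matched the RefSeq promoter set, with 15 windows. The windows of *SERPINB3* (chr18:63661844-63662143, minus strand) and *SERPINB4* (chr18:63644207-63644506, minus strand) differ at 4 of 300 bases and are 98.7% identical. Counted from 1 at the 5′ end, with the *SERPINB3* base first, the differences are G126A, G201A, C228T and T260C, shown in capitals.
SERPINB3: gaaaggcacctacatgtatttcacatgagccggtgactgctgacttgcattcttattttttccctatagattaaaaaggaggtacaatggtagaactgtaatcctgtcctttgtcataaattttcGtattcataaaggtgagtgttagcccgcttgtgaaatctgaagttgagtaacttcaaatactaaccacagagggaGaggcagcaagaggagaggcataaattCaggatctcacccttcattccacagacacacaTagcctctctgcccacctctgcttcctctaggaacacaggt
SERPINB4: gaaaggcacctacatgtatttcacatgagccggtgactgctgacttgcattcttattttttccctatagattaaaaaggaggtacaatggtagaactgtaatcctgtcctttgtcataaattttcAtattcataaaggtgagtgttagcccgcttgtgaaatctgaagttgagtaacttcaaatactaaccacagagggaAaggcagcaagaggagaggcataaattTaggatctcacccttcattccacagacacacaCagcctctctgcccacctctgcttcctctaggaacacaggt
These are the tested members with the largest differences between the groups. In controls their levels were 29.3 and 6.05 CPM per kilobase, within the limits on assigning reads given above. A link between promoter sequence and level was not tested.

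Members' promoters were searched for 3 short motifs. TGGGAA, sought on either strand, is the core bound by RBPJ, the DNA-binding partner of Notch. TGANTCA, sought on either strand with any base at N, is wider than the AP-1 site, which has C or G there. TATAAA, sought on the promoter strand, is the TATA box. The windows of *SERPINB3* and *SERPINB4* hold none of the 3. *SERPINB9*, *SERPINB13* and *SERPINB7* hold TGGGAA, in 4 of the members' 15 windows. It occurs in 24% of all 34796 distinct RefSeq promoter windows of 300 bases, a similar share. TGANTCA was found in *SERPINB5*, *SERPINB13*, *SERPINB7*, *SERPINB2* and *SERPINB8*, in 6 of the members' 15 windows, and occurs in 7.73% of all windows. In *SERPINB5* and *SERPINB2* the only match was TGAATCA, which is not the AP-1 site in the strict sense. TATAAA was found in 6 members, in 6 of the members' 15 windows, and occurs in 7.37% of all windows. From the start site it began at -30 in *SERPINB9* and *SERPINB2* and at -1 in *SERPINB6*. In *SERPINB13* it began at 24, in *SERPINB7* at -127 and in *SERPINB8* at -140. The window of *SERPINB13* (chr18:63587093-63587392, plus strand) is shown because it holds all 3, in capitals: TTCCCA, the reverse complement of TGGGAA, begins at -163 from the start site (base 0), TGACTCA at -87 and TATAAA at 24.
SERPINB13: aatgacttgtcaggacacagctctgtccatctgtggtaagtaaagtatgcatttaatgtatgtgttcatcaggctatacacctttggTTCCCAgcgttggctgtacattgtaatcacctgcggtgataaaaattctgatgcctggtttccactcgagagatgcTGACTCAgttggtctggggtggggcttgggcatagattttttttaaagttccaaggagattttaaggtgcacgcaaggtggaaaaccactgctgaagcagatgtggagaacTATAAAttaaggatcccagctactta
*SERPINB8*, with TGAATCA at -185 and TGAGTCA at -28 from its start site, was the tested member whose level differed least. A match says only that these letters are present, and binding was not measured.

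Of the proteases that clade B serpins are known to trap, more were lower than higher with DAPT. Beside this count and those of the lists that follow, 18% of all tested genes were lower and 17.2% higher. Of 16 such protease genes, 10 were tested, of which 5 were lower, 1 was higher and 4 did not pass. Their median log2 fold change was -0.35, or -0.22 without control replicate 1. *PLAT*, tissue plasminogen activator, was at 138 ± 3.53 CPM in the controls and 69.8 ± 2.49 CPM with DAPT (log2 fold change -0.98, standard error 0.05, Benjamini-Hochberg adjusted p = 3.59e-12 by the edgeR quasi-likelihood fit). *PLAU*, the urokinase that *SERPINB2* inhibits, was higher, at 387 ± 6.76 and 531 ± 23.4 CPM (0.46, standard error 0.05, adjusted p = 1.87e-07 in edgeR). *CTSS*, a cathepsin trapped by *SERPINB3*, was lower (-0.43, standard error 0.11, adjusted p = 0.00292 in edgeR), as was *KLK8*, a kallikrein of stratified epithelium (-0.75, standard error 0.23, adjusted p = 0.0137 in edgeR), though without control replicate 1 its adjusted p in edgeR was 0.0651, and the call was also lost in DESeq2 and without DAPT replicate 1. The remaining lower genes, named after their values were seen, were *FURIN*, the convertase that *SERPINB8* inhibits, and *CASP1*. Their log2 fold changes were -0.36 (standard error 0.05, adjusted p = 1.41e-05 in edgeR) and -0.33 (standard error 0.07, adjusted p = 0.000963 in edgeR). The 4 that did not pass were *CTSL*, *CTSV*, *CTSK* and *CTSH*, also named after their values were seen, with log2 fold changes of 0.09, 0.03, -0.68 and -0.11. The value of *CTSK* rests on control replicate 1, at 7.04 CPM, beside 2.53 and 2.24 CPM in the other two controls and 2.79, 2.56 and 2.23 CPM with DAPT. The leukocyte proteases *CTSG*, *ELANE*, *PRTN3* and *CMA1*, the targets of *SERPINB1*, *SERPINB4* and *SERPINB6*, had no read in any library.

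Of 23 serpin genes of other clades, 9 were tested, of which 6 were lower, 1 was higher and 2 did not pass, with a median log2 fold change of -0.44. With each library left out in turn 4 to 6 were lower, and in DESeq2 5. *SERPINF2*, the plasmin inhibitor (-0.61, standard error 0.11, Benjamini-Hochberg adjusted p = 0.000266 by the edgeR quasi-likelihood fit), and *SERPINA5*, the protein C inhibitor (-1.52, standard error 0.39, adjusted p = 0.00455 in edgeR), were lower. The level of *SERPINA5* was low, at 1.5 ± 0.357 CPM in the controls and 0.537 ± 0.341 CPM with DAPT. Its log2 fold change was -2.08 without DAPT replicate 2 and -1.08 without DAPT replicate 1. *SERPINI1*, neuroserpin, was higher (0.62, standard error 0.22, adjusted p = 0.0346 in edgeR), and this call was lost in DESeq2, without control replicate 3 and without each DAPT library in turn. Other epithelial protease inhibitors went in both directions, with 3 lower, 2 higher and 6 that did not pass among 11 tested of 16, and a median of -0.14. Among them *PI3*, the elastase inhibitor elafin, was at 10.4 ± 0.586 and 3.20 ± 0.239 CPM (-1.70, standard error 0.14, adjusted p = 4.28e-09 in edgeR). *SLPI* was lower (-0.69, standard error 0.08, adjusted p = 4.38e-07 in edgeR), the cystatin gene *CSTA* was lower by -0.22 (standard error 0.06, adjusted p = 0.00484 in edgeR), and *KAZALD1* was higher by 0.27 (standard error 0.08, adjusted p = 0.00974 in edgeR), a call lost without DAPT replicate 2.

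Genes of squamous differentiation, made in the same cell layers as several clade B serpins, had a median log2 fold change of -0.63, with 15 lower, 2 higher and 2 that did not pass among 19 tested of 30 (11 to 14 lower with each library left out in turn, and 11 in DESeq2). *KRT16* (-2.27, standard error 0.13, Benjamini-Hochberg adjusted p = 2.34e-10 by the edgeR quasi-likelihood fit), *KRT13* (-1.85, standard error 0.06, adjusted p = 1.04e-15 in edgeR) and *KRT6A* (-1.48, standard error 0.05, adjusted p = 9.4e-16 in edgeR) were keratins of suprabasal or activated epithelium, and the closely related *KRT6B* was lower from a control level of 1.66 ± 0.158 CPM (-1.94, standard error 0.34, adjusted p = 0.000118 in edgeR). These 4 lay between *SERPINB3* and *SERPINB13* in the size of the difference. The 2 higher genes, named after their values were seen, included another keratin gene. They were *KRT10* (0.31, standard error 0.07, adjusted p = 0.000938 in edgeR) and *PPL* (0.72, standard error 0.05, adjusted p = 1.23e-09 in edgeR). *TGM3* and *DSG1* had no read in any library. As a measure of the treatment, all 5 Notch target genes *HES1*, *HES2*, *HES4*, *HEY1* and *NRARP* were lower, with a median of -1.48, or -1.57 without control replicate 1. *NRARP*, which feeds back on Notch signalling, was at 56.2 ± 6.26 and 20.7 ± 1.4 CPM (-1.43, standard error 0.09, adjusted p = 3.23e-11 in edgeR). Among these targets *HES2* (-2.45) came nearest to *SERPINB3* and *SERPINB4*.

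**Figure D5:**
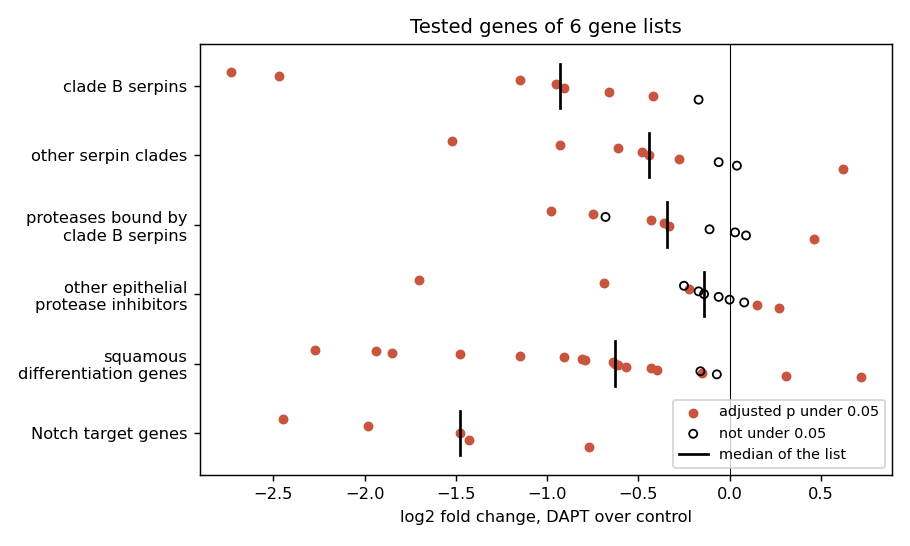
Log2 fold change (DAPT over control) of the tested genes of 6 lists, with filled points for an adjusted p-value under 0.05 in edgeR, open points for genes that did not pass it, and a line at each list's median. The medians are -0.93 for clade B serpins, -0.44 for other serpin clades, -0.35 for the proteases, -0.14 for other protease inhibitors, -0.63 for squamous differentiation genes and -1.48 for Notch targets.

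The genes most like *SERPINB4*, the tested member with the largest difference, were sought by Pearson's r of log2 CPM over the 6 libraries. They were *GSTCD* and *SMC2* (r = 0.9989 each), *BUB1* and *SMAD3* (0.9988 each) and *KIRREL1* (0.9986). Their own log2 fold changes were much smaller, from -0.50 for *SMC2* to -0.20 for *GSTCD* and *KIRREL1*. With 3 libraries in each of 2 groups, r reflects mainly the step between the groups.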

How the data were processed

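The 10 members and all gene lists were chosen with earlier results of these data known. Groups and replicate numbers come from the sample labels. The authors made directional mRNA libraries, used Trim Galore on the single-end reads and HISAT2 for mapping to GRCh38. Per the file headers, featureCounts 1.6.3 then took the strand-matched reads in exons of the Ensembl release 96 annotation, and the authors deposited these raw read counts per gene and library. The submitters' processing notes also name HTSeq and DESeq2, whose role in these files is not given in the sources used here. Multi-mapping reads and reads shared by overlapping genes were left out, as is the default of the counter.

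Symbols matched 58472 of the 58884 identifiers in GENCODE. The counts were filtered with filterByExpr (minimum count 10), TMM-normalized and tested with edgeR 4.0.16 in R 4.3.3, using a robust quasi-likelihood fit and Benjamini-Hochberg adjustment over 15001 genes. CPM values use TMM-scaled library sizes, and per-kilobase levels divide them by the exonic length in the files. Values after ± are SD over 3 libraries. The standard error of a log2 fold change was taken from its F statistic. Lists are described by counts and medians. The genes named from a list are at most the 4 with the largest log2 fold change among those with an adjusted p-value under 0.05 and a mean of at least 1 CPM, plus genes at 0. Further genes of the lists were named after their values were seen. Windows of 75 bases were compared with the primary chromosomes of the genome, and promoters came from RefSeq (GRCh38.p14). The procedure was tested on simulated counts. The alternatives were RLE scaling, library size alone, no filter or at least 10 counts in every library, DESeq2 1.42.0, limma-voom (limma 3.58.1), a fit that is not robust, a replicate block, each library left out in turn, *SERPINB3* and *SERPINB4* summed, a 2-fold limit, and levels not divided by length. Their use on the other lists and the named genes, and the alternatives for the summed level, were chosen after seeing the data. Protein sequences were not used here, and 1 gene that the naming rule selects is not reported here.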

Additional observations from a re-analysis of the deposited data

How the results depend on the processing

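The log2 fold changes of the 8 tested members were negative in all 113 values obtained under the alternatives, and 1 of them moved by more than 1 SD of the replicates (*SERPINB6*, -0.38 with library size alone). With a 2-fold limit, 3 members and 356 genes passed. Scaling by library size alone gave 2156 genes lower and 3445 higher, beside 2707 and 2574 with TMM, moved the median of all tested genes to 0.06, put the summed level with DAPT at 53.8% of control and gave 2 higher genes among the proteases. In DESeq2, 2172 genes were lower and 1802 higher, and 0 genes of other serpin clades were higher (1 in edgeR). When reads were not divided by length, *SERPINB3* ranked 5, *SERPINB6* 3, *SERPINB4* 8 and *SERPINB7* 7 in the controls. With each library left out in turn, between 7 and 8 members, between 0 and 1 higher genes of other serpin clades and between 0 and 2 higher genes among other epithelial inhibitors passed. *SERPINB8* passed in 1 of these 6 fits, without control replicate 1. Among 430 values of 31 other named genes, 21 no longer passed and 0 changed sign. The cause of these changes was not tested.

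Same-numbered libraries deviated from their group means with correlations of 0.0173, 0.0252 and 0.00382 over 15001 genes, so the numbers were not taken to pair them. With the replicate block, 7 members passed, as did 2737 genes lower and 2558 higher. Depth limits *SERPINB2* and *SERPINB9*, and the reads that cannot be assigned limit *SERPINB3* and *SERPINB4*.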
